A study of Mus musculus with 8 samples.

Results

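The transcripts examined here are 41 genes of macrophages and other myeloid leukocytes, measured in the stomachs of mice after adrenalectomy and after sham surgery. The members were taken by gene symbol from the deposited table. All 41 were found among its 24481 usable genes, and all 41 entered the test among 16889 genes. None needed the group in which it was higher to enter, since all 41 reached the minimum in the sham samples alone. The list holds 15 pan-leukocyte genes and 26 genes of myeloid signalling, Fc gamma receptors, growth factor and chemokine receptors, the phagocyte oxidase, phagocyte effectors and tissue macrophages.

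Whole stomach RNA of female, wild-type C57BL/6J mice was sequenced 3 days after surgery. One group of 4 samples came from adrenalectomized animals and the other group of 4 samples from sham-operated ones. The adrenal glands make glucocorticoids, aldosterone and adrenaline, and with this surgery alone the loss of one cannot be told apart from the loss of another. Nothing in the labels ties a sample to its own animal, and p-values therefore measure only the spread between these samples. The study's title places the comparison in work on endogenous glucocorticoids, gastric inflammation and metaplasia.

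Macrophages are tissue phagocytes that depend on the receptor encoded by Csf1r and on the transcription factor PU.1, encoded by Spi1. They sense cytokines, complement and antibody through surface receptors, and many of those receptors signal through the short adaptors encoded by Tyrobp and Fcer1g. In the gut wall, macrophages lie in the mucosa and in the muscle layer, and glucocorticoids are known to dampen their inflammatory activity. Pan-leukocyte genes such as Ptprc mark all white cells, whereas Adgre1, Mrc1 and Cd163 mark macrophages in tissue. In a bulk sample, more cells of a type and more RNA per cell cannot be told apart.

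Values are the authors' log2 values, normalized between samples. A log2 difference is adrenalectomy minus sham from a limma fit over all tested genes, with its standard error (SE), and a gene is called at a Benjamini-Hochberg adjusted p under 0.05. The median SD within groups was 0.024 over 510 genes that averaged under 4, 0.056 over 3995 genes from 4 to 8, 0.081 over 3172 genes from 8 to 10 and 0.057 over 9212 genes above 10. Values under 4, where no member lies, thus varied least. Whether the scale also shrinks differences at the members' levels was not tested. Sequencing depth is unknown, because the table holds no counts.

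The samples carried the defining transcripts of stomach, with a mean log2 value of the 13 gastric epithelial markers of 18.33 to 18.40 in adrenalectomy samples and 18.26 to 18.50 in sham samples. Other tissues came along in some libraries. The mean log2 value of 14 liver markers was 14.72, 12.10, 10.91 and 9.78 in adrenalectomy replicates 1 to 4, against 9.68, 9.70, 9.66 and 11.92 in sham replicates 1 to 4. The mean of 14 skeletal muscle markers was 7.23 to 7.33 in adrenalectomy samples, against 9.61 and 9.59 in sham replicates 2 and 3 and 7.28 and 7.56 in sham replicates 1 and 4. The mean of 10 smooth muscle markers was 15.22 to 15.31 in adrenalectomy samples and 15.39 to 15.46 in sham samples, so these groups did not overlap.

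Transcripts of this list lay higher after adrenalectomy almost throughout. Of the 41 members, 13 rose and none fell, whereas 0.930% of all tested genes were called higher and 0.782% lower. The 13 were Ptprc, Laptm5, Coro1a, Cd52, Cd37, Rac2, Cyth4, Ptpn7, Tyrobp, Spi1, Csf1r, Adgre1 and Retnla. The mean was higher after adrenalectomy for 40 members, all except Cd163, against 49.5% of all tested genes. Centring each sample on its median also put Lcp1 below 0, at -0.0012. The median log2 difference was 0.26 over the members and -0.00088 over all genes tested. Every adrenalectomy sample lay above every sham sample for 29 members, against 6.30% of all tested genes. The number of calls changed with the sample left out. Without adrenalectomy replicates 1, 2, 3 and 4 in turn, 4, 2, 6 and 3 members were called, and without sham replicates 1, 2, 3 and 4 in turn, 16, 3, 2 and 3. The number called over all tested genes also changed with the sample left out, and its range is given in the section on processing. The changes in these counts are therefore not read as a result about the members. No member was called with the score of squamous epithelium and skeletal muscle in the model (28 at an unadjusted p under 0.05, median difference 0.27). None was called either when the 3 libraries with most liver or skeletal muscle RNA, adrenalectomy 1, sham 2 and sham 3, were dropped at once (22 at an unadjusted p under 0.05, median 0.23). In both of these fits no tested gene at all was called.

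**Figure D1:**
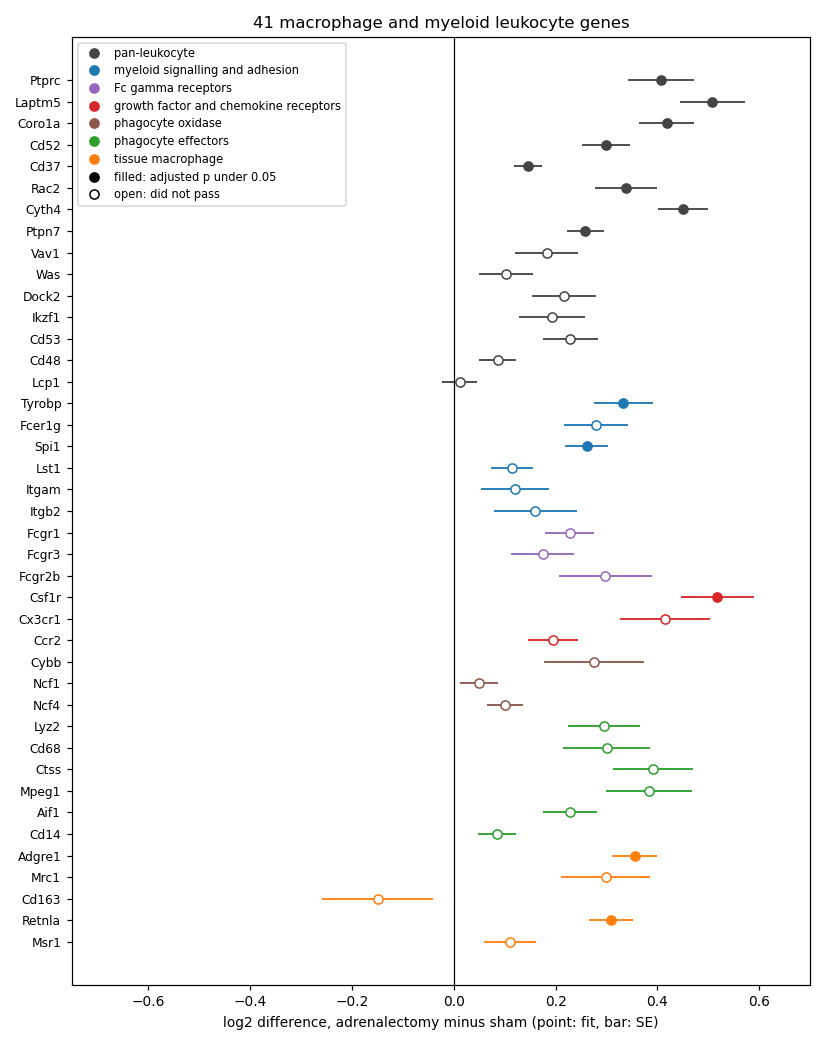
Log2 difference (adrenalectomy minus sham) of each of the 41 members, with bars for the SE of the limma fit and colours for roles; filled points passed an adjusted p of 0.05. The 13 called members all lie to the right of 0, and Cd163 alone lies to the left.

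Of the 15 pan-leukocyte genes 8 rose after adrenalectomy, and the median log2 difference was 0.23. Ptprc encodes CD45, the surface phosphatase of all nucleated blood cells. Its log2 values were 9.75, 9.72, 9.63 and 9.89 in adrenalectomy samples, against 9.33, 9.26, 9.33 and 9.45 in sham samples. Each adrenalectomy sample exceeded each sham sample, and the gene rose 1.33-fold (log2 difference 0.41 ± 0.06 SE, adjusted p = 0.0314).

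Laptm5, which encodes a lysosomal membrane protein of blood cells, had values of 11.13, 11.14, 10.98 and 11.24 in adrenalectomy samples and 10.54, 10.73, 10.55 and 10.64 in sham samples. It rose 1.42-fold (0.51 ± 0.06 SE, adjusted p = 0.0174), the largest difference among the pan-leukocyte genes. Cyth4, which encodes an exchange factor for Arf GTPases, stood at 9.31, 9.19, 9.27 and 9.27 in adrenalectomy samples, against 8.75, 8.81, 8.91 and 8.76 in sham samples. It rose 1.37-fold (0.45 ± 0.05 SE, adjusted p = 0.0102), the smallest adjusted p of the 41 members, and was called in 15 of 19 alternative settings, more than any other member.

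Coro1a, which encodes the actin-binding protein coronin 1A, had 9.34, 9.30, 9.23 and 9.47 in adrenalectomy samples and 8.90, 8.96, 8.92 and 8.89 in sham samples (log2 difference 0.42 ± 0.05 SE, adjusted p = 0.0175). The sham samples were close together, and the lowest adrenalectomy sample stood well above them. Rac2, the Rac GTPase of blood cells and the gene next to Cyth4 in RefSeq order, rose by 0.34 (adjusted p = 0.0398). Its values were 9.33 and 9.31 in adrenalectomy replicates 1 and 2 and 9.14 and 9.10 in replicates 3 and 4, against 8.85 to 8.93 in sham samples. Cd52, a small glycoprotein of the leukocyte surface, rose by 0.30 (adjusted p = 0.0314), Ptpn7, a phosphatase that acts on MAP kinases, by 0.26 (adjusted p = 0.0239), and the tetraspanin gene Cd37 by 0.15 (adjusted p = 0.0474). Ptpn7 and Cd37 are among the lowest members, with sham means of 6.48 and 6.29.

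The other 7 pan-leukocyte genes did not pass. Cd53, another tetraspanin gene, differed by 0.23 (adjusted p = 0.0803), and Dock2, which activates Rac in migrating leukocytes, by 0.22 (adjusted p = 0.125). Ikzf1, which encodes the lymphoid and myeloid transcription factor Ikaros, differed by 0.19 (adjusted p = 0.169), and each of these 3 genes had its groups apart. The groups overlapped for Vav1, a signalling protein downstream of antigen receptors (0.18, adjusted p = 0.169), Was, which encodes the actin regulator mutated in Wiskott-Aldrich syndrome (0.10, adjusted p = 0.331), and Cd48, a surface ligand (0.09, adjusted p = 0.243). Lcp1, which encodes the actin-bundling protein L-plastin, stood at 13.72 ± 0.023 after adrenalectomy and 13.71 ± 0.066 after sham surgery (SD, n = 4 each). Its difference was 0.01 ± 0.03 SE (adjusted p = 0.879), and its sign changed in 7 of 19 alternative settings. The linear mean of Lcp1 was 13445, beside 1905 for Laptm5 and 756 for Ptprc. Whether leukocytes or other cells of the stomach gave most of its RNA was not tested.

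**Figure D2:**
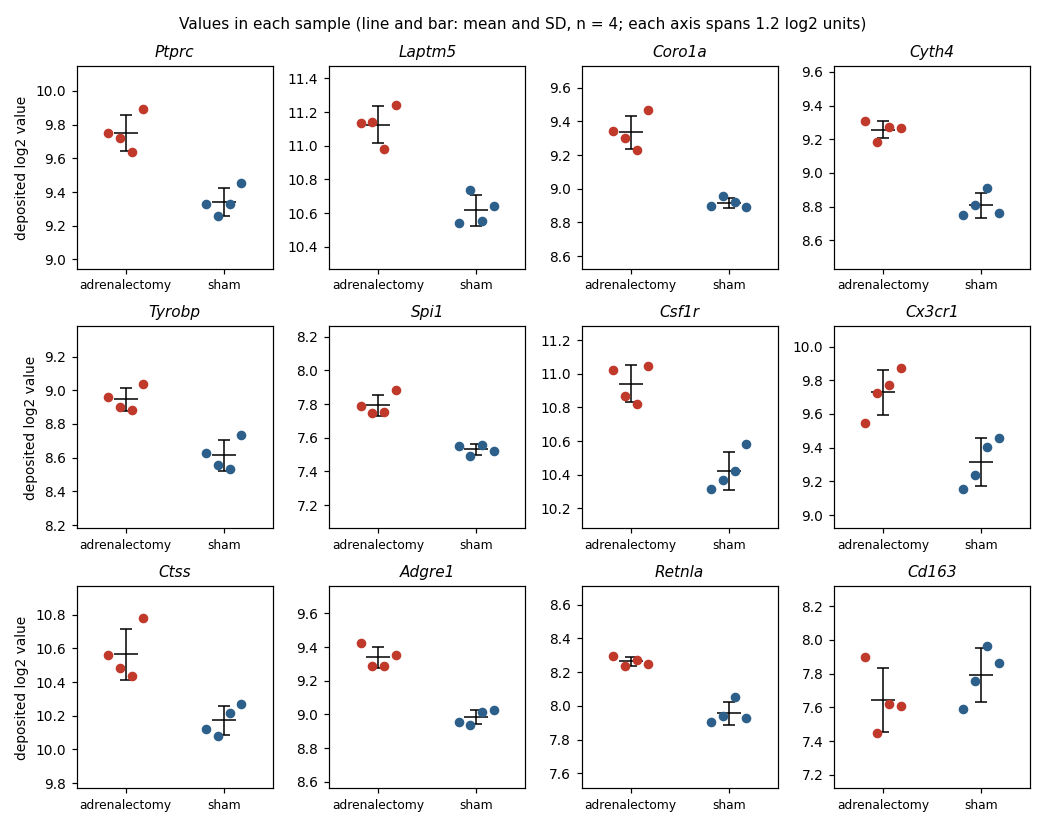
Deposited log2 value of 12 members in each sample, adrenalectomy on the left and sham on the right of each panel, with mean and SD (n = 4); every axis spans the same range. The groups are apart for each gene shown except Cd163, where they overlap and the adrenalectomy mean, 7.64, is below the sham mean, 7.79.

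Among the 6 genes of myeloid signalling and adhesion, 2 rose. Tyrobp encodes DAP12, the adaptor that pairs with activating receptors of myeloid and natural killer cells. Its values were 8.96, 8.90, 8.88 and 9.04 in adrenalectomy samples, against 8.63, 8.55, 8.53 and 8.74 in sham samples, and it rose 1.26-fold (0.33 ± 0.06 SE, adjusted p = 0.0393). Spi1 had 7.79, 7.74, 7.76 and 7.88 in adrenalectomy samples, against 7.55, 7.49, 7.56 and 7.52 in sham samples. The log2 difference was 0.26 ± 0.04 SE (adjusted p = 0.0325), with every adrenalectomy sample above every sham sample.

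Fcer1g, the signalling chain shared by several Fc receptors, differed by 0.28 (adjusted p = 0.0706) without overlap of the groups. The difference was 0.11 for Lst1, a myeloid surface and adaptor protein (adjusted p = 0.190). The integrin genes Itgb2 and Itgam, which encode the chains CD18 and CD11b of the complement receptor of phagocytes, differed by 0.16 (adjusted p = 0.326) and 0.12 (adjusted p = 0.358). For both integrin genes the groups overlapped: Itgam spanned 8.22 to 8.42 in adrenalectomy samples and 8.12 to 8.33 in sham samples.

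The Fc gamma receptors bind immunoglobulin G, and none of the 3 was called. Fcgr1, the high-affinity receptor, had 7.37, 7.29, 7.32 and 7.43 in adrenalectomy samples and 7.20, 7.09, 7.05 and 7.15 in sham samples. The groups were apart, and the difference was 0.23 ± 0.05 SE (adjusted p = 0.0597). Fcgr3, an activating receptor, differed by 0.17 (adjusted p = 0.184), and Fcgr2b, the inhibitory receptor, by 0.30 (adjusted p = 0.136). Fcgr2b reached 9.06 in adrenalectomy replicate 1, the library with most liver RNA, against 8.60 to 8.79 in the other adrenalectomy samples and 8.44 to 8.56 in sham samples. Its difference was 0.21 without that library and 0.20 with the liver score in the model. Fcgr3 and Fcgr2b resemble each other and their neighbour Fcgr4, so the division of reads between them is uncertain.

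The receptors for macrophage growth and recruitment were all higher after adrenalectomy, and 1 of the 3 passed. Their median log2 difference was 0.42, beside 0.26 over the members. Csf1r, the receptor for the growth factors CSF1 and IL-34, had 11.02, 10.87, 10.82 and 11.04 in adrenalectomy samples, against 10.32, 10.37, 10.42 and 10.58 in sham samples. The lowest adrenalectomy sample stood above the highest sham sample, and the 1.43-fold difference (0.52 ± 0.07 SE, adjusted p = 0.0223) was the largest of the 41 members. Csf1r was called in 9 of 19 alternative settings.

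Cx3cr1, the fractalkine receptor of monocytes and gut macrophages, had 9.55, 9.72, 9.77 and 9.87 in adrenalectomy samples and 9.15, 9.23, 9.41 and 9.46 in sham samples. The groups were apart by a small margin, and the difference of 0.42 ± 0.09 SE did not pass (adjusted p = 0.0606). Ccr2, the receptor that recruits monocytes from blood, differed by 0.19 (adjusted p = 0.0890), with 8.32 to 8.39 in adrenalectomy samples and 8.10 to 8.29 in sham samples. For Cx3cr1, unlike Csf1r, adrenalectomy replicate 1 held the lowest value of its group.

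The ligands of these receptors were examined in a list of 15 growth factors and attractants, of which 11 were tested and 2 rose. Csf1 differed by 0.28 (adjusted p = 0.121) and Il34 by -0.13 (adjusted p = 0.346). Cx3cl1, the fractalkine gene, differed by 0.14 (adjusted p = 0.298), and among the ligands of CCR2, Ccl12 differed by 0.14 (adjusted p = 0.0611), Ccl2 by 0.12 (adjusted p = 0.210) and Ccl7 by 0.06 (adjusted p = 0.330). Ccl8, another monocyte attractant, differed by 0.14 (adjusted p = 0.166). The 2 that rose were Tgfb1, a cytokine that gut macrophages both make and respond to (0.26, adjusted p = 0.0361), and Il33, an alarmin of epithelium and stroma (0.60, adjusted p = 0.0483). Csf2, Csf3, Il4 and Il10 were below the minimum and were not tested.

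The phagocyte oxidase makes superoxide against engulfed microbes, and none of its 3 subunit genes was called. Their median log2 difference, 0.10, was the lowest of the 7 roles. Cybb, the catalytic subunit, differed by 0.27 (adjusted p = 0.187), with 9.24, 9.08, 8.91 and 9.33 in adrenalectomy samples and 8.74, 8.86, 8.85 and 9.02 in sham samples. The groups overlapped, since adrenalectomy replicate 3 was below sham replicate 4. The cytosolic organizer subunits Ncf1 and Ncf4 differed by 0.05 (adjusted p = 0.493) and 0.10 (adjusted p = 0.175). Ncf1 spanned 7.66 to 7.72 in adrenalectomy samples and 7.60 to 7.69 in sham samples.

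None of the 6 phagocyte effector genes was called, although the groups did not overlap for 5 of them and the median was 0.30. Ctss, which encodes the protease cathepsin S of antigen-presenting cells, had 10.56, 10.49, 10.43 and 10.78 in adrenalectomy samples and 10.12, 10.08, 10.22 and 10.27 in sham samples. It was the nearest to a call, with a difference of 0.39 ± 0.08 SE (adjusted p = 0.0534). Mpeg1, the pore-forming protein perforin-2 of phagosomes, differed by 0.38 (adjusted p = 0.0657). Its adrenalectomy values were 10.84, 10.60, 10.43 and 10.77, against 10.28, 10.23, 10.26 and 10.34 in sham samples.

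Cd68, a lysosomal glycoprotein used to stain macrophages, differed by 0.30 (adjusted p = 0.117) and was the effector whose groups overlapped. Adrenalectomy replicate 3 stood at 9.24 and the other adrenalectomy samples at 9.46 to 9.60, against 9.10 to 9.30 in sham samples. Lyz2, the lysozyme of myeloid cells, differed by 0.29 (adjusted p = 0.0837), Aif1, the calcium-binding protein Iba1, by 0.23 (adjusted p = 0.0768), and Cd14, a co-receptor for lipopolysaccharide, by 0.09 (adjusted p = 0.258). Lyz2 has a close copy next to it, Lyz1, so its share of the reads is uncertain.

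Of the 5 tissue macrophage genes, 2 rose. Adgre1 encodes F4/80, an adhesion receptor of mouse macrophages. Its values were 9.42, 9.29, 9.29 and 9.35 in adrenalectomy samples, against 8.95, 8.94, 9.01 and 9.03 in sham samples, with a wide gap between the groups and a 1.28-fold rise (0.36 ± 0.04 SE, adjusted p = 0.0161). Adgre1 was called in 12 of 19 alternative settings, as were Laptm5 and Coro1a. Vav1, its neighbour in RefSeq order, was called in 0 of 19.

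Retnla encodes a secreted protein induced by IL-4 and IL-13 in alternatively activated mouse macrophages. It had 8.29, 8.24, 8.27 and 8.25 in adrenalectomy samples and 7.90, 7.94, 8.05 and 7.93 in sham samples, and rose 1.24-fold (0.31 ± 0.04 SE, adjusted p = 0.0224). The adrenalectomy samples lay within a narrow band, with an SD of 0.025. Mrc1, the mannose receptor, differed by 0.30 (adjusted p = 0.125), with 10.07, 9.68, 9.91 and 10.01 in adrenalectomy samples and 9.58, 9.51, 9.72 and 9.66 in sham samples. The groups overlapped through adrenalectomy replicate 2. The scavenger receptor gene Msr1 differed by 0.11 (adjusted p = 0.285), and by 0.065 without adrenalectomy replicate 1.

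Cd163 was the member that lay lower. It encodes the haemoglobin scavenger receptor of macrophages, which glucocorticoids induce in human monocytes. Its values were 7.90, 7.45, 7.62 and 7.61 in adrenalectomy samples, against 7.59, 7.76, 7.96 and 7.87 in sham samples. The highest adrenalectomy value came from replicate 1, the library with most liver RNA, and the lowest sham value from replicate 1. The difference of -0.15 ± 0.11 SE did not pass (adjusted p = 0.484), was -0.23 without adrenalectomy replicate 1, and was below 0 in all 19 alternative settings, between -0.89 and -0.079. The value of -0.89 came from the fit with the pan-leukocyte mean as covariate, which can hardly tell group from covariate.

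**Figure D3:**
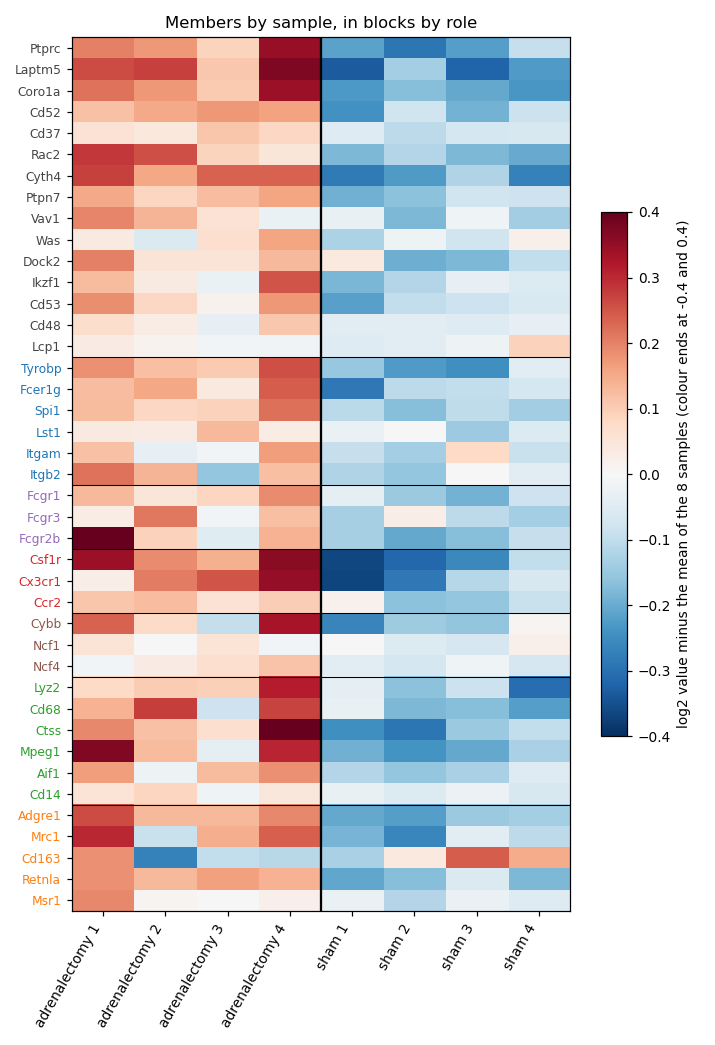
Log2 value of each member minus its mean over the 8 samples, with adrenalectomy samples left of the black line, sham samples right of it, and blocks by role. Adrenalectomy replicates 1 and 4 are the darkest red columns, and the Cd163 row runs against the others.

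The members did not vary alike within the adrenalectomy group. Replicate 4 held the highest of the 4 adrenalectomy values for 19 members and replicate 1 for 14, against 4 each for replicates 2 and 3. Replicate 3 held the lowest for 20 members and replicate 2 for 12. The mean log2 value over the 41 members was 8.79, 8.72, 8.69 and 8.81 in adrenalectomy replicates 1 to 4 and 8.49, 8.48, 8.52 and 8.54 in sham replicates 1 to 4. The spread between samples of a group was thus smaller than the gap between groups.

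Liver holds its own resident macrophages, and 3 genes known from them were on the list of other macrophage genes. These 3 were picked from that list after their values were seen. Vsig4 had 5.58 in adrenalectomy replicate 1 and 4.69 to 4.85 in replicates 2 to 4, against 4.69 to 4.72 in sham samples. Marco stood at 4.96 in that library, against 4.37 to 4.39 in the other adrenalectomy samples and 4.34 to 4.37 in sham samples, and Timd4 at 5.41, against 5.21 to 5.25 and 5.16 to 5.20. Without this library the median of the 41 members was 0.22 and 4 members were called. With the liver score in the model the median was 0.23 and 5 members were called.

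Whether the myeloid and macrophage genes moved beyond the pan-leukocyte genes was examined by subtracting, in each sample, the mean of the 15 pan-leukocyte genes. That mean was 8.64 to 8.73 in adrenalectomy samples and 8.40 to 8.46 in sham samples. Lcp1, which differed by only 0.01, is among the 15 genes, and a mean without it was not tried. Relative to the mean of the 15 genes, 86.6% of all tested genes were called lower and 0.320% higher. Most genes did not share the rise, and adjustment then hardly raises a p-value. Of the 26 myeloid and macrophage members, 2 were called higher and 6 lower, and the median relative difference was 0.012. The other 18 were not called, and their relative differences lay between -0.14 and 0.16. Whether the scale shrinks differences of the lower members was not tested.

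**Figure D4:**
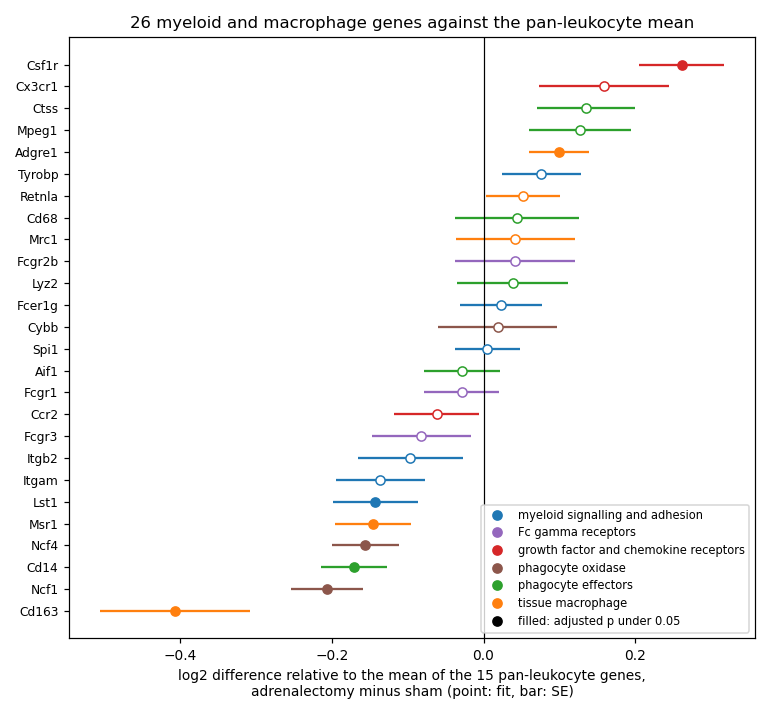
Log2 difference of the 26 myeloid and macrophage members relative to the mean of the 15 pan-leukocyte genes, adrenalectomy minus sham, with bars for the SE; filled points passed an adjusted p of 0.05. Csf1r lies farthest to the right at 0.26 and Cd163 farthest to the left at -0.41.

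Csf1r was the clearest of those above the pan-leukocyte mean. Its value minus that mean was 2.31, 2.20, 2.19 and 2.32 in adrenalectomy samples, against 1.91, 1.94, 1.99 and 2.13 in sham samples, a relative difference of 0.26 ± 0.06 SE (adjusted p = 0.00220). It was called higher in 13 of 14 alternative settings. The exception was Ptprc alone as the denominator, where the relative difference was 0.11 (adjusted p = 0.138). Adgre1 was 0.10 above the mean (adjusted p = 0.0409) but was called in 2 of 14 alternatives, and lay at -0.052 with Ptprc as denominator.

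Below the pan-leukocyte mean, Cd163 was the farthest. Its value minus that mean was -0.82, -1.22, -1.02 and -1.12 in adrenalectomy samples, against -0.81, -0.67, -0.47 and -0.59 in sham samples. The groups nearly touched at replicate 1 of each but did not overlap, the relative difference was -0.41 ± 0.10 SE (adjusted p = 0.00424), and it was called lower in all 14 alternatives. Its difference was already below 0 in the direct comparison. The other 5 called lower, Ncf1 (-0.21), Cd14 (-0.17), Ncf4 (-0.16), Msr1 (-0.15) and Lst1 (-0.14), had differences above 0 in the direct comparison and sham means of 6.39 to 8.16. Ncf1 and Cd14 were each called lower in 13 of 14 alternatives and Ncf4 in 12 of 13, with their relative groups apart. Msr1 was called lower in 9 of 14 and Lst1 in 5 of 13, and the relative groups of both overlapped. Without adrenalectomy replicate 2 or without sham replicate 1, 5 members were called in place of 8. With the median of the pan-leukocyte genes as denominator 2 were called, Csf1r and Cd163, and with Ptprc as denominator 11, all lower. In the main relative fit 86.6% of all tested genes were called lower, so a lower call does not set a member apart from most genes. The share over all genes with the other denominators is not given here.

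Spi1, which encodes PU.1, was among the genes that rose, and the promoters of the members were searched for the PU.1 motif GAGGAAGT and its core GAGGAA on both strands, the core being part of the longer motif. RefSeq windows on GRCm38.p6, from 250 bases before to 50 after a start site, were matched for 30 of the 41 members, with 36 windows. The motif was in 6 of the 36 windows (16.7%), against 3.20% of 32851 windows of all genes, and the core in 20 (55.6%), against 28.3%. The 6 genes were Retnla, Cyth4 and Cd37, which rose, and Vav1, Cd53 and Ctss, which were not called. They are shown 5′ to 3′ on the gene's strand with the motif or its reverse complement in capitals, as 30 bases around the motif, except for Vav1, with all 250 bases before the start site, and Retnla, with 192 of these bases, which end where an annotated exon begins. A match in letters is a description and not a bound site.

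Retnla, chr16:48842359-48842550, plus strand: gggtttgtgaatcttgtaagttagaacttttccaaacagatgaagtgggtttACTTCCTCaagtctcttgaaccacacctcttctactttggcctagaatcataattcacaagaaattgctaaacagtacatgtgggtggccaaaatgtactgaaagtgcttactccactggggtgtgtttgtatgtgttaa
Cyth4, chr15:78597062-78597091, plus strand: ggccagggctgACTTCCTCccacagggtct
Cd37, chr7:45238846-45238875, minus strand: acccccccggaACTTCCTCtttctctgccg
Vav1, chr17:57278850-57279099, plus strand: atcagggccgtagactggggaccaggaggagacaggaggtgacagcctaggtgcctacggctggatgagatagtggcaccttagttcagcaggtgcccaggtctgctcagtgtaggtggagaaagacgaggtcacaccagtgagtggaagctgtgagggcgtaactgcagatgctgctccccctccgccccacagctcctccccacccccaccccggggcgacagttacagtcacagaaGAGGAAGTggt
Cd53, chr3:106790125-106790154, minus strand: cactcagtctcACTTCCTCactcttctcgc
Ctss, chr3:95526773-95526802, plus strand: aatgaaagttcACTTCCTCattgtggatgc

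Counted from the start site along the gene, the first base of the motif lay at -198 in Retnla, -25 in Cd37, -11 in Vav1 and -2 in Ctss, and at 7 in Cd53 and 27 in Cyth4. The motif thus occurred at differing distances, and on the reverse strand in 5 of the 6.

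Beyond the members, other macrophage and leukocyte genes were read from further lists. Of 30 other macrophage genes 4 rose and none fell, with a median of 0.15. The complement genes C1qa, C1qb and C1qc, made largely by tissue macrophages, rose by 0.35, 0.36 and 0.38 (adjusted p = 0.0393, 0.0317 and 0.0317), and Pld4, a phospholipase D family protein of phagocyte endosomes, rose by 0.32 (adjusted p = 0.0325). The C-type lectin receptor genes Clec4a3 and Clec4n differed by 0.15 (adjusted p = 0.0572) and 0.17 (adjusted p = 0.0687). Lyve1, found on lymphatic vessels and on some macrophages beside vessels, was at 9.12 to 9.34 in adrenalectomy samples and 9.45 to 9.79 in sham samples, a difference of -0.39 (adjusted p = 0.0890). Of 24 leukocyte signalling genes 3 rose: Lcp2, an adaptor of antigen and Fc receptor signalling (0.32, adjusted p = 0.0393), the Src family kinase gene Fgr (0.18, adjusted p = 0.0401) and Arhgdib (0.38, adjusted p = 0.0467). Nckap1l, a subunit of an actin regulatory complex, differed by 0.31 (adjusted p = 0.0549) and the phosphatase gene Inpp5d by 0.24 (adjusted p = 0.0560). The median of the 24 was 0.17.

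Genes of macrophage activation states were read from lists that leave out the members, among them Retnla, which rose, and Mrc1. None of 16 other alternative activation genes tested was called, and the median was 0.031. Cd36, a scavenger and fatty acid receptor that endothelium and fat also express, had the smallest p of this list. It was at 13.90 to 13.96 in adrenalectomy samples and 13.98 to 14.33 in sham samples, a difference of -0.27 (adjusted p = 0.0944). Chil3, a secreted chitinase-like protein, had 8.80, 9.56, 7.65 and 8.66 in adrenalectomy samples, against 7.40, 7.60, 7.51 and 7.45 in sham samples. All adrenalectomy values were above the sham values but were spread widely, and the difference of 1.18 did not pass (adjusted p = 0.121). Arg1 had 11.59, 10.01, 8.71 and 9.28 in adrenalectomy samples, against 8.94, 10.15, 10.30 and 10.11 in sham samples. Its highest value came from adrenalectomy replicate 1, the library with most liver RNA. The difference of 0.023 ± 0.60 SE (adjusted p = 0.988) is too uncertain to be read as no change. Mgl2 differed by 0.24 (adjusted p = 0.116) and Ccl22 by 0.13 (adjusted p = 0.0949). None of 13 tested classical activation genes was called either, with a median of 0.058. Nos2, the inducible nitric oxide synthase, was at 5.87 to 5.99 in adrenalectomy samples and 5.73 to 5.83 in sham samples, a difference of 0.15 (adjusted p = 0.0841). The interferon-induced chemokine gene Cxcl10 differed by 0.14 (adjusted p = 0.134), also with the groups apart. Il1b differed by 0.11 (adjusted p = 0.325), Cd86 by 0.058 (adjusted p = 0.465) and Tnf by 0.019 (adjusted p = 0.612).

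**Figure D5:**
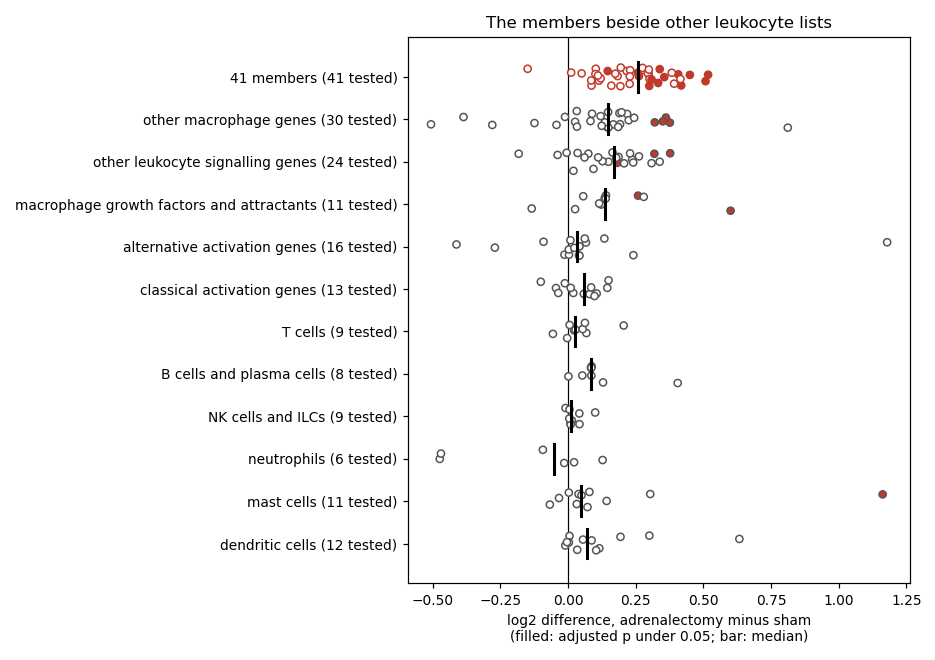
Log2 differences (adrenalectomy minus sham) of the 41 members and of the tested genes in 11 other lists, each point a gene, filled where the adjusted p was under 0.05, with a bar at the median of each list. The members' median is 0.26, and those of the lymphoid lists are 0.03 for T cells, 0.09 for B cells and 0.009 for natural killer cells.

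Markers of lymphoid cells were mostly low in these samples. The mean log2 value of 9 tested T cell markers was 4.95 to 4.98 in adrenalectomy samples and 4.90 to 4.96 in sham samples, and Cd3e, Cd3d, Cd3g, Cd8a and Cd8b1 were below the minimum. Cd4, which macrophages also express, was the largest T cell marker difference, at 0.21 (adjusted p = 0.109), and the kinase gene Lck differed by 0.05 (adjusted p = 0.302). The mean of 8 tested B and plasma cell markers was 4.89 to 5.05 in adrenalectomy samples and 4.80 to 4.84 in sham samples, that of 9 natural killer and innate lymphoid markers 4.84 to 4.90 and 4.81 to 4.86, and that of 6 neutrophil markers 6.17 to 6.55 and 6.26 to 6.78. No gene of these lists or of the 12 dendritic cell markers was called, and 1 of 11 mast cell markers, Mcpt1, rose by 1.16 (adjusted p = 0.0393). The mean of the mast cell markers was higher, 8.39 to 8.67 in adrenalectomy samples and 8.24 to 8.43 in sham samples. For the dendritic cell markers it was 6.57 to 6.69 in adrenalectomy samples and 6.48 to 6.55 in sham samples, without overlap of the groups. The B cell genes Bank1 and Pou2af1 differed by 0.09 and 0.13 (adjusted p = 0.0890 and 0.118), with the groups apart for both. Klrk1, Gata3 and Eomes, of natural killer and innate lymphoid cells, differed by 0.04, 0.04 and 0.01 (adjusted p = 0.275, 0.663 and 0.702). The part of the lower smooth muscle RNA in the members' differences was not tested.

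Among 12 glucocorticoid-induced genes that macrophages also express, 4 fell and none rose: Per1 by 1.04, Fkbp5 by 1.03, Klf9 by 0.68 and Cebpd by 0.43 on the log2 scale. Tsc22d3 differed by -0.24 (adjusted p = 0.102), Sgk1 by -0.41 (adjusted p = 0.107) and Nfkbia by -0.20 (adjusted p = 0.181). Cd163 differed by -0.15 and did not pass (adjusted p = 0.484), with its groups overlapping. Whether it shares a cause with these genes, and which cells gave their RNA, was not tested. Some members overlap other transcripts in RefSeq, Ptpn7 with Ptprv and Dock2 with Insyn2b, and without the strand setting their reads cannot be told apart.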

How the data were processed

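Total stomach RNA was isolated by Trizol and column clean-up and sequenced on a NextSeq500 from Illumina TruSeq libraries, per the labels. Build mm9 and the tools DESeq2, featureCounts, STAR and Trim Galore are named, without versions, in the submitters' processing notes. For settings, annotation and strand, nothing is given in the sources used here. Deposited log2 values are normalized between samples by the authors. The transformation is not named, and depth is unknown.

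The 8 columns of these samples were used, 8 columns of other samples were not, and 26 rows with dates as names were left out. A gene was tested if its linear values averaged at least 10 over the 8 samples (16889 genes). Adrenalectomy was compared with sham surgery in limma (version 3.58.1, R 4.3.3) using an intensity trend and no covariate, two-sided, adjusted over all tested genes. The same model was fitted after subtracting each sample's pan-leukocyte mean. The code was tested on simulated data. Scores of lists average the log2 values of their tested genes.

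The members and lists were chosen with earlier results of these data known, and no list was tested as a set. All members are named, and of the leukocyte, macrophage and glucocorticoid lists the called genes, up to 3 others with the smallest p and markers at low values. Some genes that this rule names are not reported here. Lists of other tissues are given as scores, with the called genes. Arg1, Chil3, Tnf, Cd86, Vsig4, Marco, Timd4, Il34, Cx3cl1, Ccl2 and Ccl7 were named beside these after their values were seen. Alternatives were other filters, scalings, variance models, covariates, denominators, a replicate block and samples left out. Promoters and gene order come from RefSeq on GRCm38.p6, and exons from GENCODE M21 on that assembly. This is not the authors' build, so the coordinates apply to the sequences only.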

Additional observations from a re-analysis of the deposited data

Results flagged for a closer look

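Each group of 4 samples was examined, for each of the 41 members, for a single value far from the rest, by Dixon's ratio of the gap to the range. Of 82 groups 4 held such a value, and chance gives about 1 in 20. Lyz2 reached 12.32 in adrenalectomy replicate 4, whereas replicates 1 to 3 had 12.08 to 12.11. Msr1 reached 7.37 in adrenalectomy replicate 1, the library with most liver RNA, whereas replicates 2 to 4 had 7.18 to 7.20, and its difference was 0.065 without that library. Lst1 was 6.58 in adrenalectomy replicate 3 and 6.48 in each of replicates 1, 2 and 4. Fcer1g was 8.51 in sham replicate 1 and 8.69 to 8.72 in sham replicates 2 to 4, and its difference was 0.23 without that sample. None of these 4 genes was called in the direct comparison of all samples, while Msr1 and Lst1 were called lower relative to the pan-leukocyte mean.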

How the results depend on the processing

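With all samples, limma called 289 genes (157 higher, 132 lower), 13 of them members, and 8 members relative to the pan-leukocyte mean. Without a filter 170 genes were called, and with each sample centred on its median 156 (69 higher, 87 lower). Quantile normalization left 8 members called. The liver score as a covariate left 118 genes and 5 members. No gene and no member was called, 0 in each case, with a covariate for squamous epithelium and skeletal muscle (2275 genes at an unadjusted p under 0.05), the pan-leukocyte mean as a covariate (897) or 3 libraries left out together (1822). Leaving out 1 sample gave 27 to 633 genes, 2 to 16 members and 5 to 8 relative calls. With the median pan-leukocyte gene as denominator 2 relative calls were made. A replicate block left 4 genes and 0 members (31 at an unadjusted p under 0.05). Same-numbered samples correlated at -0.64 to 0.45 and 1 of 4 best with its own number. These correlations over all tested genes cannot decide whether a number marks a shared day or litter, and the labels do not say. Of the members' differences under alternatives, 601 kept their side of the threshold and direction, 138 lost their call, 10 gained one and 25 reversed. The 601 include members not called with all samples, which kept their side by staying uncalled. Of the 13 called members, Cyth4 kept its call most often, in 15 of 19 alternatives. Cd37 and Tyrobp kept theirs least often, in 4 of 18 and 4 of 19. Lcp1 was -0.0012 after centring, -0.0012 with the squamous and skeletal muscle covariate, -0.022 with the liver covariate, -0.024 without the 3 libraries, and -0.0035 to 0.044 over single samples left out. The pan-leukocyte mean as covariate nearly coincided with the groups, at 8.64 to 8.73 in adrenalectomy samples and 8.40 to 8.46 in sham samples. The fit with it can hardly tell group from covariate, so its differences and their signs are not read as changes of the members. In that fit Cd163 was at -0.89, and the differences that turned below 0 were Lcp1 -0.16, Ptprc -0.15, Was -0.21, Ikzf1 -0.47, Cd53 -0.29, Cd48 -0.20, Tyrobp -0.057, Fcer1g -0.23, Itgam -0.34, Itgb2 -0.54, Fcgr2b -0.44, Csf1r -0.26, Cybb -0.84, Cd68 -0.0021, Ctss -0.36, Mpeg1 -0.51, Aif1 -0.073, Mrc1 -0.31 and Msr1 -0.13. For the other changes the cause was not tested. Whether the scale shrinks the differences of the 5 members under a linear mean of 100 was not tested.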

Other observations

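Dendritic cell and smooth muscle genes beside the members gave the following values. Itgax, the CD11c integrin chain of dendritic cells and some macrophages, was 8.24 to 8.52 in adrenalectomy samples and 8.01 to 8.14 in sham samples, a log2 difference of 0.30 (adjusted p = 0.0611). Bst2, an interferon-inducible membrane protein, was 10.46 to 11.19 in adrenalectomy samples and 10.09 to 10.30 in sham samples, a difference of 0.63 (adjusted p = 0.0615). Siglecf, the only one of 7 eosinophil markers tested, differed by 0.24 (adjusted p = 0.203). Irf8, a transcription factor of dendritic cells and monocytes, differed by 0.19 (adjusted p = 0.169). Csf3r, the neutrophil growth factor receptor, was higher without overlap of the groups, by 0.13 (adjusted p = 0.192), and Cxcr2 differed by -0.09 (adjusted p = 0.373). The neutrophil gene S100a9 differed by -0.47 (adjusted p = 0.248), with sham replicates 2 and 3 at 8.02 and 7.95 and all other samples at 6.94 to 7.46. The mast cell genes Mcpt2, Cma1 and Fcer1a differed by 0.30, 0.14 and 0.03 (adjusted p = 0.333, 0.422 and 0.489). Of 10 smooth muscle genes 3 fell: Myh11, the smooth muscle myosin heavy chain, by 0.27, Tagln by 0.20 and Tpm2 by 0.19 on the log2 scale (adjusted p = 0.0476, 0.0393 and 0.0250).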
